A study of Rattus norvegicus with 4 samples.

Results

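The receptors described here are the G protein coupled receptors for catecholamines, serotonin, acetylcholine, glutamate, somatostatin, opioid peptides, tachykinins, neuropeptide Y and adenosine. They were taken by name, as every probe set other than a control that named exactly 1 gene whose symbol starts with Adra, Adrb, Drd, Htr (other than the Htr3 ion channels), Chrm, Grm, Sstr, Opr, Tacr, Hrh or Adora, or with Npy, a digit and r. This gave 71 probe sets of 50 genes, among 1263 probe sets other than controls and 720 named genes. No probe set carried the name of a histamine receptor. Total RNA of rat samples with the source label brain, adrenal medulla had been hybridised to 4 arrays, and each array was a group of its own. Values of the arrays are given in the order undigested then digested at day 1, and undigested then digested at day 7. The groups were an undigested and a digested sample at day 1 and an undigested and a digested sample at day 7 of a time course. The labels give no strain, age or other treatment and do not say what was digested. With 1 array per group, a difference could not be set against a spread between replicates, so sizes are given without a test, beside an additive limma fit that uses all 4 arrays.

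Each of these receptors crosses the cell membrane and acts through a G protein. Receptors coupled to Gs raise cyclic AMP, those coupled to Gi or Go lower it and act on ion channels, and those coupled to Gq or G11 activate phospholipase C and release calcium from internal stores. Chromaffin cells of the adrenal medulla release catecholamines on cholinergic input, and receptors of this class tune that release. Adora2a, an adenosine receptor gene, is well known from PC12 cells, a line derived from a rat tumour of the adrenal medulla.

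Signals are given after scaling the median of every array, over the probe sets other than controls, to 263. A signal at or below 51.8, the 20th percentile of all scaled values, was treated as lying at a floor. Nothing in the table tells signal from background. How bright a probe set is depends on its probes as well as on its transcript, so each is set against the median of its array and not against another receptor. The arrays had medians of 242 to 284 before scaling. The hybridisation controls were low on the digested day 7 array (median log2 of -1.35 against the other arrays), and the beta-actin control, whose 3′ signal is divided by its 5′ signal, gave 2.66 on the undigested day 7 array and 1.35 to 1.48 on the others. All day 7 values below rest on these arrays, and the part of either in a result was not tested. Of the chromaffin markers on the array, 4 of 6 (Th, Dbh, Ddc and Penk) had a probe set at least 2 times above the median on all 4 arrays, as had 6 of the 7 neuronal markers. Of the glial markers, 1 of 4 for astrocytes (Glul) and 2 of 4 for myelinating glia (Cnp and Mag) had one, and Itgam, a macrophage gene and the only one of its list on the array, had none. Other probe sets of Penk, Map2, Glul and Mag fell short of this level. By probe set the shares were 55.6% for chromaffin cells and 68.8% for neurons, against 34.0% of all 1263. They were 15.4% for astrocytes and 28.6% for myelinating glia. Genes of the adrenal cortex and of fibroblasts and vessels had no probe set by these names.

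Few receptors were bright. Only Adora2a, Npy1r and Drd3 had a probe set at least 2 times above the array median on all 4 arrays, which is 3 of 71 probe sets (4.23%) against 34.0% of all 1263. Adora3 also passed at 1.5 times the median, with 1 of its 3 probe sets, and on the day 1 arrays alone at 2 times. The array median itself was exceeded by 15, 17, 17 and 13 receptor probe sets. The median receptor probe set stood at the 28.5th, 32.9th, 31.1st and 33.2nd percentile of these arrays. Of the 284 receptor values, 85 (29.9%) were at the floor. By array the shares were 31.0%, 36.6%, 28.2% and 23.9%, against 21.0%, 21.7%, 18.3% and 19.1% of all 1263 probe sets. Only 5 receptor probe sets were at the floor on all 4 arrays, or 7.04%, close to the 7.28% of all probe sets.

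**Figure D1:**
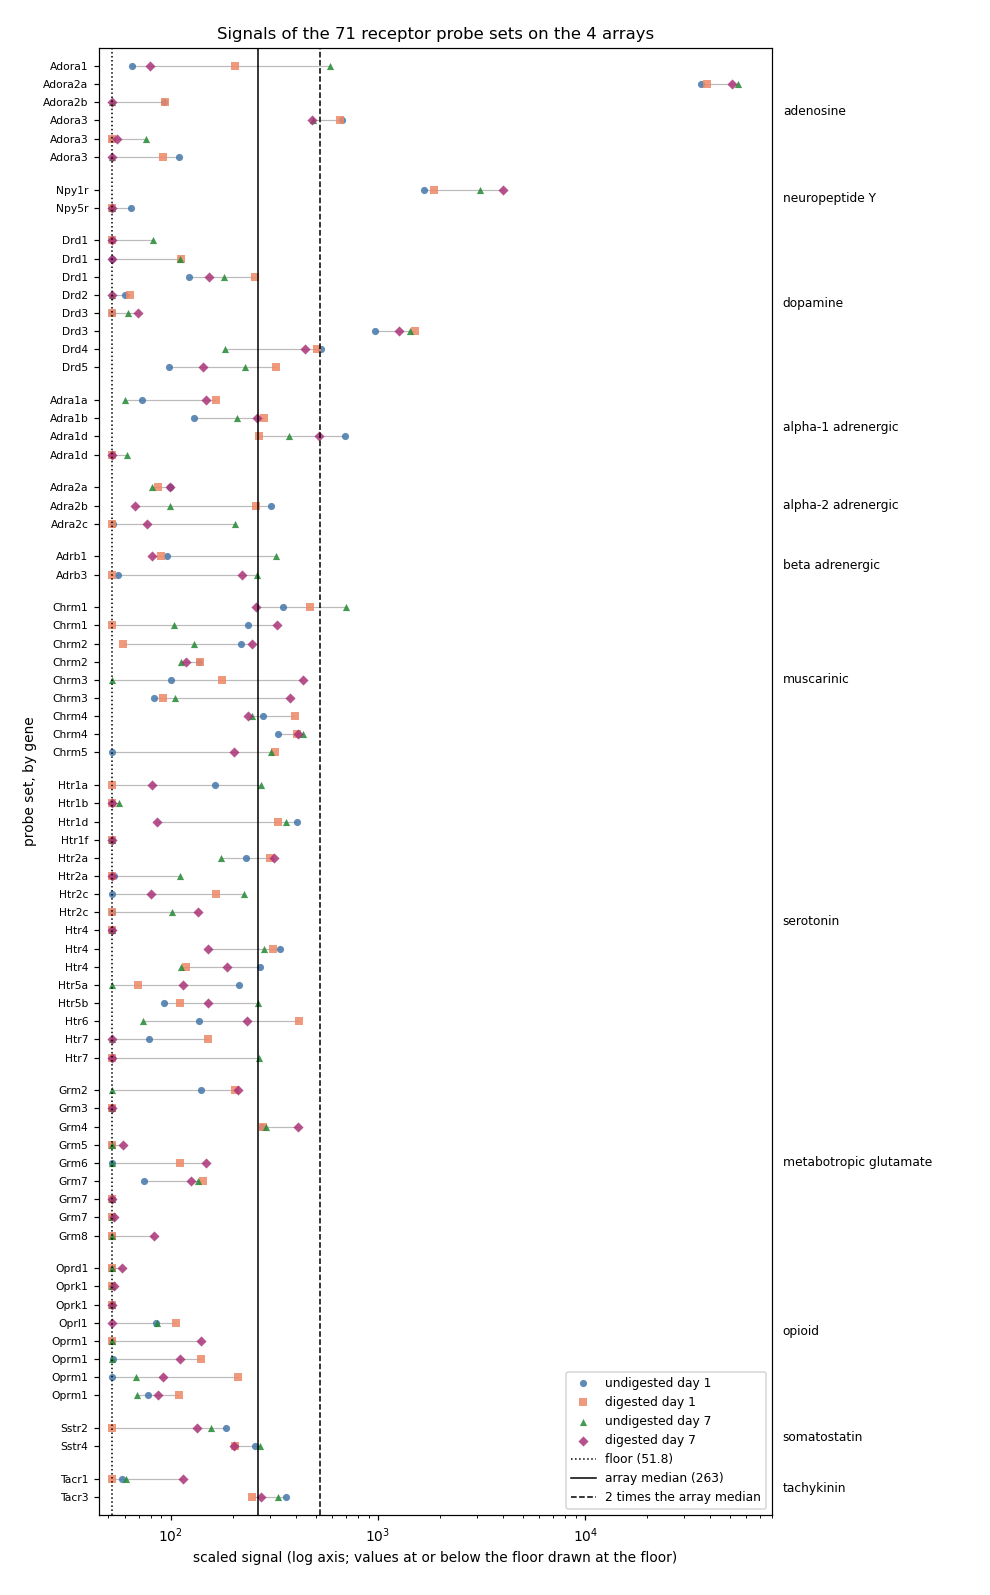
Scaled signal of each of the 71 receptor probe sets (rows, by gene and receptor family) on a log axis, with 1 point per array and a line from the lowest to the highest. The points of Adora2a, Npy1r and 1 probe set of Drd3 lie beyond 2 times the array median on all 4 arrays, and most other points lie between the floor of 51.8 and the median of 263.

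Adora2a codes for a receptor that couples to Gs and raises cyclic AMP when it binds adenosine. Its only probe set (S47609_s_at) read 36352 and 38888 at day 1 and 54454 and 51059 at day 7. These are 138 to 207 times the array median, and between 97.5% and 98.6% of the probe sets of each array were dimmer. Both day 7 values were above both day 1 values, by a log2 of 0.58 in the undigested and 0.39 in the digested samples, of which the first was 0.18 under quantile normalisation. The share of all probe sets with such an order of the arrays was not counted. Orders of this kind, here and below, are therefore not read as particular to a receptor. Digested and undigested samples differed by 1.07-fold at either day, a difference whose sign turned with the scaling. In the additive limma fit the day effect was a log2 of 0.49 ± 0.31 (SE), with an adjusted p of 0.513. The other adenosine receptors were much nearer the floor or the median. Adora3, coupled to Gi, read 671, 658, 485 and 479 by its brightest probe set (AF102804_s_at), higher on both day 1 arrays. The remaining probe sets of Adora3 and that of Adora2b, another Gs-coupled receptor, read at most 110 on any array.

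Npy1r codes for the Y1 receptor of neuropeptide Y, which couples to Gi. Its probe set (Z11504cds_at) read 1669 and 1856 at day 1 and 3113 and 4030 at day 7, or 6.35 to 15.3 times the median. Both day 7 values were above both day 1 values, an order whose share over all probe sets was not counted. They were 1.86-fold higher in the undigested and 2.17-fold higher in the digested samples. Under quantile normalisation the log2 differences were 0.72 and 1.09, and in the values as deposited 0.67 and 1.16. Of the 15 receptor probe sets tested, Npy1r had the lowest p for the day in the additive limma fit, with a log2 effect of 1.01 ± 0.31 (SE) and an adjusted p of 0.248 over 632 probe sets. Npy5r, which codes for the Y5 receptor, was above the floor only on the undigested day 1 array, at 63.9.

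Drd3 codes for the D3 dopamine receptor, a Gi-coupled member of the D2 class. One of its probe sets (X53944_at) read 972, 1504, 1432 and 1266. These are 3.70 to 5.72 times the median, and the lowest was the undigested day 1 value. The other (A17753cds_s_at) lay at the floor on both day 1 arrays and read 62.0 and 69.2 at day 7. The level of Drd3 therefore rests on 1 of its 2 probe sets.

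The stretches before the transcription start of the bright receptors are shown because these genes set the level results apart. They come from RefSeq, build GRCr8, which held an entry for 37 of the 50 receptor genes, Npy1r and Drd3 among them. Each has 250 bases, printed 5′ to 3′ on the strand of the gene, with bases matching a searched motif in capitals.
Npy1r, chr16:27813388-27813637, minus strand: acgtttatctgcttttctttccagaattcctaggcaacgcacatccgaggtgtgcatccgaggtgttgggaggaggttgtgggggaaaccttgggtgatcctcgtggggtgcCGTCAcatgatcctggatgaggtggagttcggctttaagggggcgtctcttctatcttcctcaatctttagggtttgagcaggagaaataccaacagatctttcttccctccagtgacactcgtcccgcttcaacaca
Drd3, chr11:70437794-70438043, minus strand: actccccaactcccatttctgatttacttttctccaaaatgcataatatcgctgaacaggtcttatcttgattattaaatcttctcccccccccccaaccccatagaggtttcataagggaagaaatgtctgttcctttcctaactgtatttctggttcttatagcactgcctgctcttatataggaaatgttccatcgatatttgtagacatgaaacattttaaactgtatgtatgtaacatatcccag
The motifs searched on both strands were the cyclic AMP response element TGACGTCA, its core TGACG, which lies within it, the GC box GGGCGG, the CCAAT box CCAAT and the TATA box TATAAA. Of all 33469 stretches of this length, 1.59%, 18.2%, 30.5%, 34.0% and 12.9% held each motif, in that order. The Npy1r stretch held 1 match, to the core on the opposite strand, and that of Drd3 held none. GC content was 51.6% for Npy1r and 38.0% for Drd3. A match of letters is not a binding site, and the arrays measured no binding.

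Differences between arrays were read on the 632 probe sets whose mean log2 signal reached the median of all, a signal of 229. Among the receptors 15 probe sets of 14 genes passed this filter, or 21.1% against 50.0% of all probe sets. The G protein classes gave 9 of 41 probe sets for Gi or Go, 4 of 16 for Gq or G11 and 2 of 14 for Gs. By family, 3 of 9 muscarinic, 3 of 16 serotonin, 2 of 8 dopamine, 2 of 6 adenosine and 1 of 9 metabotropic glutamate probe sets passed. The somatostatin, tachykinin and neuropeptide Y families had 1 of 2 each, the alpha-1 adrenergic family 1 of 4, and the 3 alpha-2 adrenergic, 2 beta adrenergic and 8 opioid probe sets none.

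Over the 4 arrays, 6 of these 15 probe sets had a ratio of the highest to the lowest signal of at least 2, those of Npy1r, Adra1d, Drd4, Chrm1, Htr1d and Htr4. The share was 28.8% of all 632. Without the digested day 7 array 3 did, without the undigested day 7 array 4, and on the day 1 arrays alone 1. The smallest range was 1.33-fold, for 1 of the probe sets of Chrm4.

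At day 1 digestion went with an at least 2-fold difference in 1 of the 15 receptor probe sets, beside 3.48% of all 632. This was Adra1d, which codes for the alpha-1D adrenergic receptor, coupled to Gq. Its brighter probe set (AF071014mRNA_s_at) read 691 and 265 at day 1 and 372 and 520 at day 7. The digested sample was the lower of the pair at day 1, by 2.60-fold, and the higher at day 7, by 1.40-fold. The other probe set of Adra1d exceeded the floor only on the undigested day 7 array, at 61.6. The median log2 difference of the 15 probe sets was 0.01 against 0.12 for all 632.

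At day 7 a 2-fold difference with digestion was reached by 3 of the 15 probe sets, against 11.4% of all 632. Drd4, which codes for the Gi-coupled D4 dopamine receptor, read 532 and 505 at day 1 and 183 and 444 at day 7. The undigested day 7 value stood below the other arrays, 2.91-fold lower than the undigested day 1 value and 2.43-fold lower than the digested day 7 value. Htr1d, which codes for the Gi-coupled serotonin 1D receptor, read 405, 328, 360 and 85.5. This last value stood alone, 4.21-fold below the undigested day 7 and 3.83-fold below the digested day 1 value. It lies near the floor, and with a floor at the 40th percentile the log2 differences shrank from -2.07 and -1.94 to -1.15 and -1.02. The third was Chrm1, the gene of the Gq-coupled M1 muscarinic receptor, which read 348, 472, 703 and 257 by its brighter probe set (AJ006522mRNA_at). The undigested day 7 value was the highest and the digested day 7 value the lowest, 2.73-fold apart. The median log2 difference of the 15 probe sets was -0.09 against -0.05 for all 632.

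**Figure D2:**
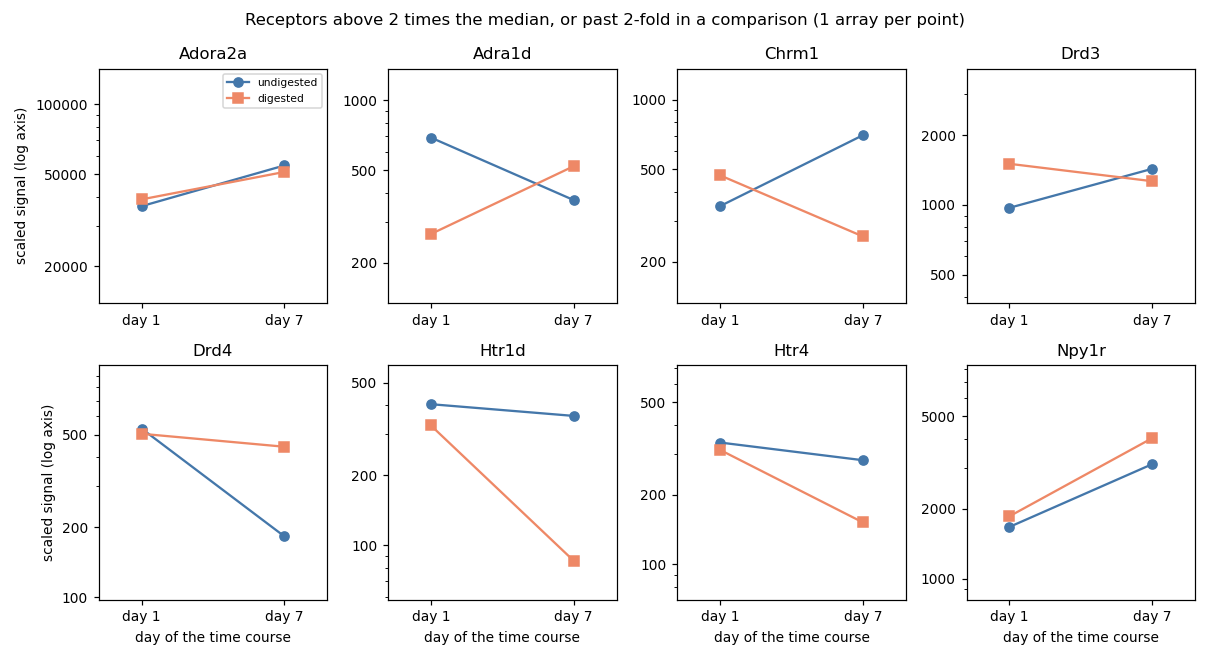
Scaled signals (log axis, 1 array per point) by day for the 3 receptors above 2 times the array median and the others that passed 2-fold in a comparison, with undigested in blue and digested in orange. Npy1r and Adora2a are higher at day 7 in both lines, and the digested and undigested lines of Adora2a, Adra1d, Chrm1, Drd3 and Drd4 cross, for Adora2a by differences whose sign turned with the scaling.

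Between the days, 2 of the 15 undigested and 3 of the 15 digested receptor differences were at least 2-fold, against 13.3% and 8.07% of all 632. In the undigested samples these were Drd4, lower at day 7, and Chrm1, 2.02-fold higher. In the digested samples they were Npy1r, higher at day 7, and Htr1d and Htr4, lower. Htr4 codes for the Gs-coupled serotonin 4 receptor. The brightest of its 3 probe sets (AJ011370_g_at) read 335, 311, 281 and 152, with the digested day 7 value lowest and 2.05-fold below the digested day 1 value. The calls of Chrm1 in the undigested and Htr4 in the digested samples were lost under 4 of 5 other ways of scaling or flooring, with a log2 of 0.78 for Chrm1 in the values as deposited and -0.84 for Htr4 with an offset in place of the floor. The remaining 7 calls named here were kept in each of these 5. The median log2 day difference of the 15 probe sets was -0.13 in the undigested samples (0.17 for all 632) and -0.01 in the digested samples (0.04). Summed over their probe sets, the signals of the neuronal marker list were 278856, 304842, 197811 and 183358. Those of the chromaffin list were 280858, 304156, 386066 and 252224, and those of the astrocyte list 11581, 11985, 5707 and 6867. These sums rest mostly on the brightest genes, such as Snap25, Nefl and Nefm for neurons and Th for chromaffin cells. Of the 12 analysed neuronal probe sets, which read 7 genes, 5 were higher and 7 lower at day 7 in undigested samples and all 12 were lower in digested samples. Of the 6 chromaffin probe sets (5 genes) 5 were higher and 1 lower, then 3 higher and 3 lower, and of the 4 astrocyte probe sets (2 genes) 4 and then 3 were lower. The share of all 632 that was higher or lower was not counted, so these counts are not read as particular to a cell type. The part of these marker levels in the receptor differences was not tested. In whole samples, fewer cells of a type and less RNA per cell cannot be told apart.

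None of the 15 analysed receptor probe sets passed 2-fold in the same direction in both pairs of arrays that share none. For digested against undigested this was 0 of 15 probe sets, with 0.158% of all 632 passing at both days. For day 7 against day 1 it was 0 of 15, with 1.74% passing in both digestion states, and Npy1r came nearest at log2 differences of 0.90 and 1.12. In the additive limma fit no receptor had an adjusted p under 0.05. For digestion 0.00% of all 632 did, and the lowest adjusted p of a receptor was 0.677. An unadjusted p under 0.05 was found for 1 of the 15 receptor probe sets (Htr1d), or 6.67%, beside 6.65% of all 632. For the day 0.158% of all had an adjusted p under 0.05. Unadjusted, 2 of the 15 (Npy1r and Htr1d), or 13.3%, had a p under 0.05 beside 14.4% of all, so neither share of the receptors stood above the background. The error of this fit has 1 residual degree of freedom beside a spread pooled over probe sets, and that error also takes in any interaction of digestion with day.

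**Figure D3:**
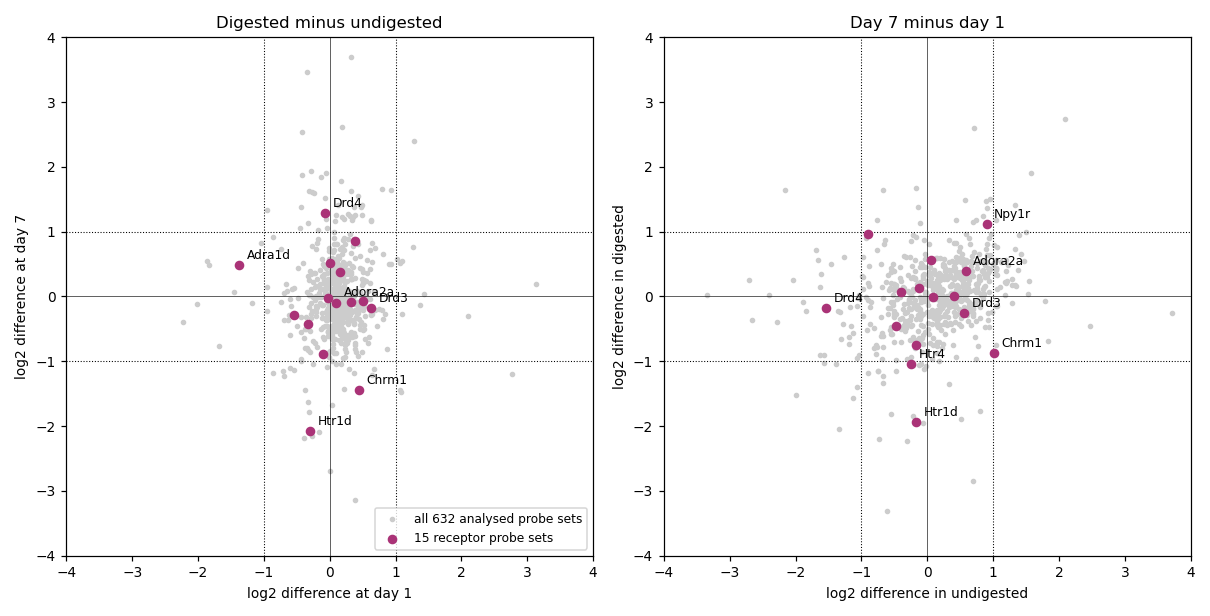
Log2 differences of the 632 analysed probe sets (grey) and the 15 receptor probe sets among them (purple), with digested minus undigested at day 1 against day 7 on the left and day 7 minus day 1 in undigested against digested samples on the right. No purple point lies beyond the dotted 2-fold lines on both axes in the same direction.

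Of the other 7 analysed probe sets, none passed 2-fold. Tacr3, which codes for the Gq-coupled NK3 tachykinin receptor, read 359, 248, 329 and 271, with both digested values below both undigested ones (log2 of -0.54 at day 1 and -0.28 at day 7). Sstr4, which codes for a Gi-coupled somatostatin receptor, read 255, 203, 271 and 202 and had the same order (log2 of -0.33 and -0.42). Htr2a, the gene of the Gq-coupled serotonin 2A receptor, had the reverse order at 231, 301, 175 and 316 (log2 of 0.38 and 0.85). Its other probe set was at the floor on both digested arrays and read 53.2 and 111 on the undigested arrays of day 1 and day 7. The share of all analysed probe sets with both digested values below, or above, both undigested ones was not counted. Grm4, which codes for a Gi-coupled metabotropic glutamate receptor, read 277, 279 and 287 on the first 3 arrays and 410 on the digested day 7 array. The Gi-coupled M4 muscarinic receptor gene Chrm4 had 2 analysed probe sets, at 278, 395, 246 and 235 and at 328, 409, 435 and 410.

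Several receptors were read by more than 1 probe set, 15 genes by 36 probe sets in all. Where no value of a pair of probe sets lay at the floor, the 2 differences had the same sign in 15 of 26 cases. Those cases come from 10 genes, and comparisons share arrays, so they are not independent. The other probe set of Chrm1 (M16406cds_s_at) read 236, under the floor, 104 and 325, and differed in sign from the brighter one in all 4 comparisons. At day 7 the digested sample was thus lower by a log2 of 1.45 in one and higher by 1.65 in the other. For Htr4 the digested day 7 sample was below its undigested partner by a log2 of 0.89 in the brightest probe set and above it by 0.74 in another (U20907_at), which read 269, 118, 112 and 187. The remaining probe set of Htr4 lay at the floor on all 4 arrays. Chrm3, the gene of the Gq-coupled M3 receptor, had probe sets that differed in sign in 1 of the 4 comparisons. One probe set (M16407_at) read 83.1, 91.7, 104 and 377, and the other (AB017656_s_at) read 100, 177, under the floor and 435. Both were highest on the digested day 7 array, but day 7 minus day 1 in undigested samples was a log2 of 0.33 in the first and -0.95 in the second, the latter with a value at the floor. Neither passed the filter, and Chrm3 was singled out after its values were seen. Of the 4 probe sets of Oprm1, which codes for the mu opioid receptor, 3 were highest on the digested day 1 array and the other on the digested day 7 array.

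**Figure D4:**
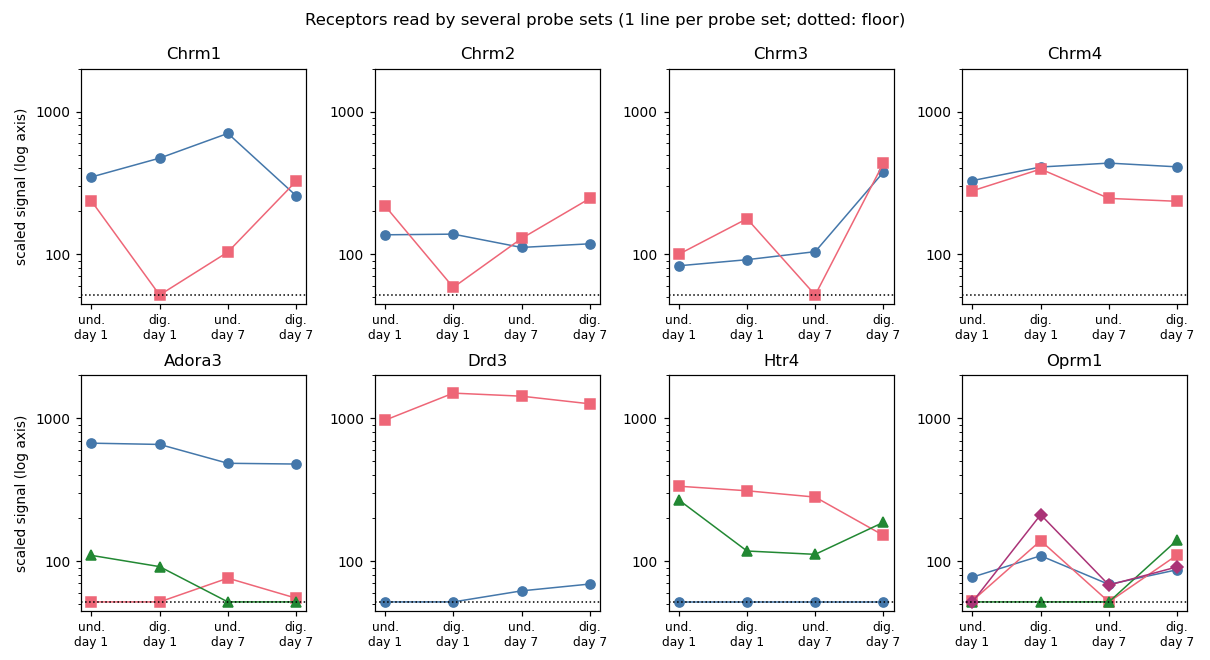
Scaled signals (log axis) on the 4 arrays for 8 receptors with several probe sets, 1 line per probe set, with the floor dotted. The probe sets of Chrm1 run opposite to each other, those of Chrm3 both peak on the digested day 7 array, and 1 of the 2 of Drd3 stays near the floor.

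The other 56 receptor probe sets, which left 36 genes with no analysed probe set, lay lower. Of these 16 were above the floor on all 4 arrays, 35 on some and 5 on none, and 13 exceeded the array median on at least 1 array. Their highest signal was 587, for Adora1 on the undigested day 7 array. Adora1 codes for the Gi-coupled A1 adenosine receptor and read 65.2 and 204 at day 1 and 79.1 in the digested sample at day 7. Over all 71 probe sets without the filter, 19, 21, 19 and 20 passed 2-fold for digestion at the earlier and the later day and for the day in undigested and in digested samples. The shares of 26.8%, 29.6%, 26.8% and 28.2% stood against 16.5%, 21.6%, 22.5% and 19.2% of all 1263 probe sets. Probe sets passed 2-fold more often without the filter than with it, and the receptors were dimmer than the rest, so these shares are not read as particular to them.

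Without the filter, 5 of the 71 passed 2-fold with digestion in the same direction on both days (7.04%, against 3.48% of all 1263), and as many did so in opposite directions (against 2.93%). Htr6, the gene of the Gs-coupled serotonin 6 receptor, read 136 and 415 at day 1 and 73.6 and 232 at day 7, higher in the digested sample both times. Adra1a, which codes for the Gq-coupled alpha-1A adrenergic receptor, read 72.2 and 166, then 59.9 and 148. Htr1a, the gene of the Gi-coupled serotonin 1A receptor, was lower in the digested samples, with 164 and a value at the floor at day 1 and 274 and 81.4 at day 7. Grm6 and 1 probe set of Oprm1 were higher, each with values at the floor. Those in opposite directions were Adora1, Htr5a and 1 probe set each of Chrm1, Drd1 and Htr2c. For the day, 2 of the 71 had the same direction in both digestion states (against 3.64%) and 5 opposite ones (Adora1, Drd5 and 1 probe set each of Chrm1, Drd1 and Htr2c, against 3.09%). Adrb3, which codes for the beta-3 adrenergic receptor, read 55.6 and below the floor at day 1 and 262 and 220 at day 7 in undigested and digested samples. Adra2b, which codes for the Gi-coupled alpha-2B adrenergic receptor, read 305 and 257 at day 1 and 99.1 and 67.0 at day 7. All of these are outside the analysed set, and several have a value at or near the floor.

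Beside the receptors, a list of G proteins, phospholipase C, phosphodiesterases, receptor kinases and arrestins had 29 probe sets. Of these, 69.0% lay at least 2 times above the median on all 4 arrays. Neither probe set of the phospholipase C gene Plcb1 reached this level or passed the filter. The shares were 37.0% of 27 for transmitter synthesis, storage, uptake and breakdown and 27.8% of 18 for transmitter receptors of the same superfamily outside the rule, near the 34.0% of all 1263. For the counts past 2-fold below, the shares of all 632 were 3.48% and 11.4% for digestion at the earlier and the later day and 13.3% and 8.07% for the day in undigested and digested samples, and with so few probe sets none of the counts is read as particular to a list. Of the genes of transmitter synthesis, storage, uptake and breakdown, 17 of 25 listed were on the array and 9 had analysed probe sets, 13 in all. Of these 13, digestion gave 1 past 2-fold at day 1 (higher) and 2 at day 7 (both lower), and the day 4 in undigested samples (3 higher, 1 lower) and 2 in digested samples (both lower). Only Tph1, which codes for an enzyme of serotonin synthesis, passed in both digestion states, at 479 and 621 at day 1 and 229 and 235 at day 7. Npy, the gene of the peptide that Npy1r binds, read 577 and 58.2 in the digested samples at day 1 and day 7, where Npy1r read 1856 and 4030. In the undigested samples Npy read 574 and 376. The value of 58.2 lies near the floor, on the array whose hybridisation controls were low. A link between the signals of Npy and Npy1r was not tested. The G proteins, phosphodiesterases, receptor kinases and arrestins had 25 analysed probe sets of 12 genes, with 1, 2, 3 and 2 past 2-fold in the 4 comparisons in the same order and 0 in both pairs. The widest differences among them were those of 1 probe set of the G protein beta subunit gene Gnb1, lower at day 7 in digested samples by 3.50-fold, and of Arrb1 and Pde4c, higher in the digested sample at day 7 by 3.16-fold and 3.12-fold. Arrb1 codes for a beta-arrestin, which ends receptor signalling, and Pde4c for a phosphodiesterase that breaks down cyclic AMP. The other 4 probe sets of Gnb1 gave day differences from a log2 of -1.15 to 0.17 in digested samples. Transmitter receptors of the same superfamily outside the rule had 10 analysed probe sets of 5 genes, with 1, 2, 1 and 2 past 2-fold in the 4 comparisons in the same order and 0 in both pairs. Among these, Bdkrb1, the bradykinin B1 receptor gene, was 4.70-fold lower in the digested sample at day 1, 1 probe set of the GABA-B subunit gene Gabbr2 had a log2 of -2.19 for digestion at day 7, and 1 of Gabbr1, the other subunit, one of 1.52. The lower signals behind the first 2 were 84.7 and 75.1, near the floor. For digestion at day 1, the other probe set of Bdkrb1, a dim one, gave a log2 of -0.84, with the digested value at the floor. For digestion at day 7, the other analysed probe set of Gabbr2, a brighter one, gave a log2 of -0.24, and a dim one -0.02. The other analysed probe sets of Gabbr1 gave 0.38 to 0.80.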

How the data were processed

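The deposited table held linear signal intensity per probe set, 1322 probe sets (59 controls) on 4 arrays, 1 per group. The steps by which the authors computed it are not given in the sources used here. With 4 arrays, their number sets the precision. Gene names came from a platform probe table. Of the 71 receptor probe sets, 68 had a gene identifier in the RefSeq table of build GRCr8, and 0 symbols changed. Arrays were scaled to the same median (factors 0.925 to 1.09), values were floored at the 20th percentile and taken to log2, and probe sets with a mean log2 signal at or above the median of all were analysed. A probe set was called past 2-fold at a log2 difference of at least 1, with no test. An additive fit of digestion and day used limma 3.58.1 in R 4.3.3, with Benjamini-Hochberg adjustment over 632 probe sets. Other steps used Python 3.11.15 and pandas 2.3.3 and were tested on simulated data. The receptors and all gene lists were chosen with earlier results of these data known. Receptors at least 2 times above the array median on all arrays, or analysed and past 2-fold with no value at the floor, are given on every array. Others were named after their values were seen, as was Npy. From each neighbouring list, genes past 2-fold in both pairs, or else the 3 widest, are named. Alternatives were values as deposited, quantile and cyclic loess normalisation, a higher floor, an offset, no filter, other thresholds and 1 value per gene. Leaving out day 7 arrays was added after the data were seen.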

Additional observations from a re-analysis of the deposited data

Results flagged for a closer look

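Of the 8 probe sets described in full, 5 had digestion differences of opposite sign at day 1 and day 7. Over the 15 analysed receptor probe sets 7 did, beside 341 of all 632, so such signs are not particular to the receptors. Each rests on 1 array per group, and the change between the days was not tested. Subtracting the day 1 from the day 7 difference gave a log2 of -1.89 for the brighter probe set of Chrm1, 1.87 for Adra1d, 1.36 for Drd4, -0.81 for Drd3 and -0.19 for Adora2a. For Adora2a the sign at each day turned with the scaling, and for Drd4 the day 1 difference was a log2 of -0.07. The other probe set of Chrm1 gave digestion differences of -2.19 and 1.65, opposite to the brighter one at both days.

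Adora1 lay outside the analysed set but reached 2.23 times the array median on the undigested day 7 array, with no other array above the median. It had 1 probe set, so no second reading was at hand.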

How the results depend on the processing

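The count of 3 receptor probe sets at least 2 times above the median ran from 2 (4 times) to 4 (1.5 times, or the day 1 arrays alone). Without the filter on dim probe sets, the counts past 2-fold of 1, 3, 2 and 3 (digestion at day 1 and day 7, the day in undigested and digested samples) became 19, 21, 19 and 20, those in the same direction in both pairs 5 for digestion and 2 for the day, and those with a 2-fold range 40. At 1.5-fold the 4 counts were 2, 5, 4 and 6, and 1 probe set (Npy1r) had the same direction in both states for the day. At 3-fold they were 0, 1, 0 and 1, with 1 for the range. The shares of all probe sets at thresholds other than 2, for the range without the filter or with arrays left out are not given here. Counts at those settings are not read as particular to the receptors. Quantile normalisation or an offset in place of the floor left 1 past 2-fold for the day in undigested samples. The 6 probe sets with a 2-fold range became 3 without the digested day 7 array and 1 on the day 1 arrays alone. The limma fit called 0 receptors for either term. Other counts stayed within 1.5 times of those reported, and the 4 median differences moved by less than the SD between probe sets of a gene (0.32 to 0.52). This SD is of single probe sets and wider than each of the 4 medians, so it does not show that their signs hold. Of 160 single receptor values under 5 alternatives, 157 moved by less than that SD, 3 (Htr1d) by more, and 0 calls changed sign. Over all analysed probe sets, the values as deposited shifted the median log2 difference by -0.13, 0.14, -0.23 and 0.04. Each shift is larger in size than the receptor median of its comparison (0.01, -0.09, -0.13 and -0.01). No replicates existed to leave out. Signals near the floor limit the sizes for Htr1d and for most receptors outside the analysed set.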
